A study of Homo sapiens with 3 samples.

Results

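The ERBB receptors EGFR, ERBB2, ERBB3 and ERBB4 and 6 genes whose products restrain them, LRIG1, LRIG2, LRIG3, ERRFI1, CBL and CBLB, were followed in lung cancer cells before and after the acquisition of osimertinib resistance. These 10 genes were chosen by their symbol among the 43316 genes on the array, and all 20 of their probes were used. The choice was made with earlier ratios of the same arrays in view, so their ratios are given as a description and no test was run on them. In both resistant lines LRIG1 mRNA was 26.0 to 29.0 times its level in the parental line, ERBB3 mRNA was at 0.179 and 0.230 of it by the brightest probe, which ends in repeat-like sequence, and at most 0.0158 in OR1 and 0.0212 in OR2 by a probe for the full-length transcript, and EGFR and ERBB2 mRNA lay between 0.483 and 0.597 of it by their brightest probes. The other restraints lay between 0.742 and 1.72 of the parental level, and ERBB4 was not measured well above background in any line.

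H1975 is a non-small cell lung cancer cell line that carries mutated EGFR and is sensitive to osimertinib, an inhibitor of the EGFR kinase. OR1 and OR2 are resistant lines that were derived from H1975 by raising the dose of osimertinib in steps to 2 μmol/L during 4 months. All the lines were grown in the same serum-containing medium, and the study's methods call OR1 and OR2 clones that were established independently. Whether the drug was present when RNA was taken is not given in the sources used here. Total RNA of each line was hybridized to 1 Agilent one-color array, so there was no replicate of any line. The probes do not separate the mutated from the unmutated EGFR allele.

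The ERBB receptors are transmembrane tyrosine kinases that pair with each other when a ligand of the EGF or neuregulin family binds. EGFR and ERBB4 bind ligand and have active kinases, ERBB2 has no known ligand and acts as the partner of the others, and ERBB3 binds neuregulins but has a weak kinase and passes its signal to PI3K and AKT through its partner. Active receptors are held back in several ways. CBL and CBLB are ubiquitin ligases that bind phosphorylated receptors and send them to the lysosome, ERRFI1 (also called MIG6) binds the kinase domain and blocks it, and LRIG1 is a transmembrane protein with leucine-rich repeats and immunoglobulin domains that lowers the amount of ERBB receptors at the cell surface. LRIG2 and LRIG3 are its relatives, and their effects on the receptors are less settled.

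The brightness of a spot, corrected for background by the scanner software, is its intensity. A ratio is the intensity in OR1 or OR2 divided by that in H1975 after each array was divided by its 75th percentile, an intensity of 157 for H1975, 138 for OR1 and 162 for OR2. Where a probe was not well above background on one side of a ratio, that side was set to no less than the lowest intensity that was, 11.4 to 12.6 depending on the array, and the ratio is a bound. A gene was called higher in both lines when both ratios of its brightest probe were at least 2, and lower in both lines when neither exceeded 0.5. A technical SD of a log2 ratio was propagated from the error that the scanner software gives each spot. It covers the measurement of 1 RNA sample and not the spread between cultures. Both ratios have the same H1975 array below the line, so a deviation of that array would move OR1 and OR2 together. Between 45.6% and 45.9% of the 58200 probes were well above background on each array, and no spot was saturated. In a bulk RNA sample, fewer cells that express a gene and less of its mRNA per cell cannot be told apart.

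The probes that carry the main values are shown here so that each value can be tied to the transcript it was read from. Positions are on hg19 as the array files give them, each for the whole probe of 60 bases. Only the first 30 bases are shown, except for the short ERBB3 transcript, where the last 30 are shown because their letters resemble the start of an Alu repeat, a sequence found in many human transcripts. Whether RNA other than ERBB3 binds to that probe was not tested, so its ratios are uncertain as values of ERBB3. The EGFR probe for NM_005228 lies at chr7:55274841-55274900 on the plus strand, the ERBB2 probe for NM_001005862 at chr17:37884829-37884888 on the plus strand, the ERBB3 probe for NM_001982 at chr12:56496160-56496219 on the plus strand, the ERBB3 probe for the short transcript NM_001005915 at chr12:56479217-56479276 on the plus strand, and the LRIG1 probe for NM_015541 at chr3:66429597-66429656 on the minus strand. Exons and untranslated regions are not given, since no annotation of that build was used here.
EGFR NM_005228: tatcaaggaagaaatggttcagaaaatatt
ERBB2 NM_001005862: aatgggtgttgtatggggaggcaagtgtgg
ERBB3 NM_001982: gctcttgactacttggaactaggctcttat
ERBB3 NM_001005915: ggccaggcctgatggcttacacctgtaatc
LRIG1 NM_015541: aaaggacagcccttgacctgggttctgggt

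LRIG1, the restraint that gives its name to the family, had the largest ratio of the 10 genes. Its only probe was spotted 10 times on each array. The spots ran from 39.1 to 63.6 with a median of 54.4 in H1975, from 1165 to 1302 with a median of 1240 in OR1, and from 1540 to 1741 with a median of 1602 in OR2. Every spot of either resistant line was brighter than every spot of H1975, and the spots of OR1 and OR2 did not overlap before scaling. Averaged, H1975 read 54.2, OR1 read 1236 and OR2 read 1613, which gave ratios of 26.0 and 29.0 (log2 4.70 and 4.86, technical SD 0.22 for both). Among the 21140 genes with a ratio in both lines, LRIG1 had the 17th highest ratio in OR1 and the 11th highest in OR2. OR2 stood at 1.11 times OR1 after scaling, a log2 difference of 0.16 beside a technical SD of 0.20. Both ratios depended on how background was handled, and the normexp correction, which adds an offset of 50 to every spot, brought them to 12.2 and 14.2.

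The genes whose ratios in OR1 and OR2 came closest to those of LRIG1 were SUSD2, COL8A1 and ISYNA1, among 12298 candidates that had a signal well above background in all 3 lines and carry a curated mRNA accession. SUSD2, a membrane protein with a sushi domain, had ratios of 21.2 and 32.6. COL8A1, a chain of collagen VIII, had ratios of 33.0 and 37.0. ISYNA1, the enzyme that starts inositol synthesis from glucose 6-phosphate, had ratios of 37.1 and 25.6. The distance from LRIG1 in the plane of both log2 ratios was 0.34 for SUSD2, 0.49 for COL8A1 and 0.54 for ISYNA1. SUSD2 had log2 ratios of 4.41 in OR1 and 5.03 in OR2, beside 4.70 and 4.86 for LRIG1. No technical SD was computed for these distances.

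ERBB3, the receptor that couples the family to PI3K, was the only one of the 10 genes called lower in both lines, and LRIG1 was the only one called higher. Over all 22418 genes well above background on at least 1 array, 6.32% were called lower in both lines and 5.09% higher. In a single line the shares were 9.58% lower and 9.17% higher in OR1 and 8.7% lower and 7.72% higher in OR2. With 1 gene of 10 in each direction, the counts of the group were close to that background, and the sizes of the ratios rather than their number set ERBB3 and LRIG1 apart from the other members. The brightest ERBB3 probe, for the short transcript NM_001005915, read 302 in H1975 against 47.4 in OR1 and 71.5 in OR2, that is, ratios of 0.179 and 0.230 (log2 -2.48 and -2.12, technical SD 0.22 and 0.21), the 384th and the 445th lowest of the 21140. The 3 genes nearest to this pattern were CCDC71L with ratios of 0.180 and 0.236, the cytokine IL24 with 0.178 and 0.239, and the adenylate kinase AK7 with 0.169 and 0.232.

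The other ERBB3 probes gave a larger difference or none that could be measured. The probe for NM_001982, the mRNA of the full-length receptor, read 824 in H1975, 3.94 in OR1, where it was not well above background, and 17.9 in OR2. The ratio was at most 0.0158 in OR1 and was 0.0212 in OR2, the latter 47.2-fold lower than H1975 (technical SD 0.33 as a log2 value). A second probe for this mRNA, at chr12:56482380-56482439, read 8.49, 3.33 and 5.52 and was well above background on no array, H1975 included. Both ERBB3 probes with a ratio were thus below H1975 in both resistant lines, and they differed in size by more than their technical SDs. Taking the median over the ERBB3 probes with a ratio gave 0.0531 in OR1 and 0.0698 in OR2. The normexp correction was applied to the brightest probe, that for the short transcript, and gave 0.338 and 0.374.

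**Figure D1:**
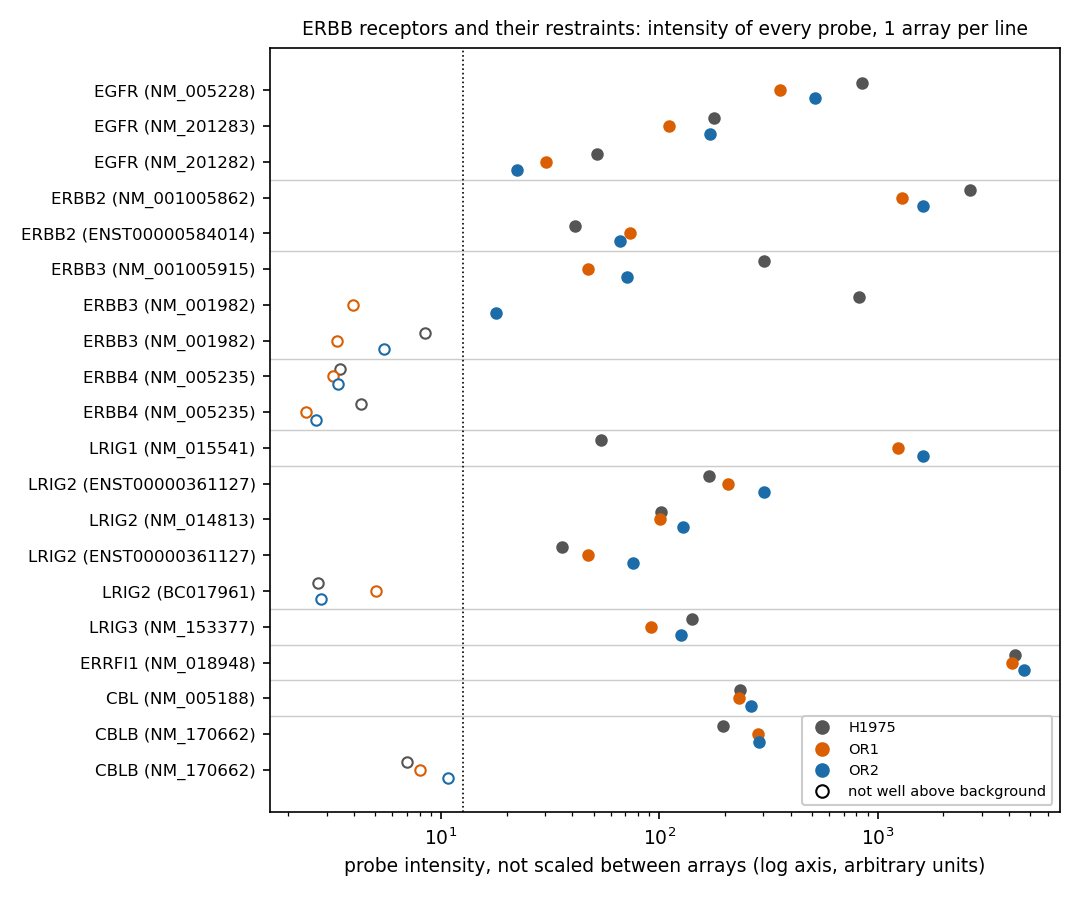
Intensity of each of the 20 probes (log axis, arbitrary units, not scaled between arrays) in H1975 (grey), OR1 (orange) and OR2 (blue), with 1 array per line; each point is a probe's spots averaged on the log2 scale, open points were not well above background, and the dotted line marks 12.6, the highest of the 3 lowest intensities called well above background. LRIG1 stands at 54.2 in H1975 against 1236 and 1613, and the ERBB3 probe for NM_001982 at 824 against 3.94 and 17.9.

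EGFR, the receptor that osimertinib inhibits, was below H1975 by all 3 of its probes in both lines, though to different extents. The brightest probe, for the full-length mRNA NM_005228, read 846 in H1975 against 358 in OR1 and 515 in OR2, that is, ratios of 0.483 and 0.593 (log2 -1.05 and -0.75, technical SD 0.20 for both). EGFR thus passed the ratio of 0.5 in OR1, and not in OR2. The difference between OR2 and OR1 was 0.30 as a log2 value, beside a technical SD of 0.20. EGFR also has shorter transcripts that encode soluble forms of the extracellular domain. The probe for one of them, NM_201283, at chr7:55224558-55224617, read 179, 111 and 170, with ratios of 0.711 and 0.929, the latter a log2 value of -0.11 within its technical SD of 0.21. The probe for another, NM_201282, at chr7:55231446-55231505, read 51.9, 30.4 and 22.4, with ratios of 0.670 and 0.420. OR1 was the lower line by the NM_005228 and NM_201283 probes, and OR2 by the NM_201282 probe. The whole NM_201282 probe is printed because its order of the lines differed from that of the other EGFR probes; its letters encode a stretch of the extracellular domain that the full-length receptor also has.
EGFR NM_201282: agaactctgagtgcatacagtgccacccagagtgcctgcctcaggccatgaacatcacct

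The call of EGFR in OR1 was close to the threshold. The ratio was 0.518 after the normexp correction and 0.670 as the median over its probes, and both of these fell outside the call. With the threshold at a ratio of 1.5 in place of 2, EGFR and ERBB2 joined ERBB3 among the genes lower in both lines, while 2957 of all genes were then lower.

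ERBB2, the partner receptor without a ligand of its own, was also below H1975 by its main probe. That probe was spotted 10 times. Its spots ran from 2573 to 2783 in H1975, from 1240 to 1381 in the 9 spots kept in OR1, and from 1552 to 1720 in OR2, with no overlap between the lines before scaling. The mean intensities of 2641, 1288 and 1619 gave ratios of 0.556 and 0.597 (log2 -0.85 and -0.74, technical SD 0.20 for both), which did not reach 0.5. After scaling, OR2 stood at 1.07 times OR1, a log2 difference of 0.10 that lay within the technical SD of 0.20. A second probe, for the transcript ENST00000584014 at chr17:37851136-37851195, read 41.1, 73.3 and 66.1 and so ran the other way, with ratios of 2.03 and 1.57. Because the probes disagree, the median over the ERBB2 probes was 1.06 in OR1 and 0.967 in OR2, and the lower value of ERBB2 rests on the main probe.

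ERBB4 was read by 2 probes for NM_005235. They lay between 2.42 and 4.29 over the 3 lines and were never well above background, so no ratio was formed for ERBB4. At this sensitivity an ERBB4 transcript was not detectable in H1975, OR1 or OR2.

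Of the ubiquitin ligases, CBL was near its H1975 level and CBLB was above it. CBL read 234 in H1975, 231 in OR1 and 264 in OR2, with log2 ratios of 0.17 and 0.13 that lay within the technical SD of 0.21. CBLB read 197, 283 and 287, with ratios of 1.64 and 1.42 (log2 0.71 and 0.51, technical SD 0.21 for both). A second CBLB probe gave no signal well above background. CBLB was therefore higher than H1975 by more than its technical SD in both lines under the main scaling. It did not reach a ratio of 2 in either. With spike-in scaling, however, CBLB stood at 1.08 in OR1, a log2 value of 0.11 that lay within the technical SD.

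ERRFI1, the direct inhibitor of the kinase domain, was at nearly the same level in all 3 lines. It read 4257 in H1975, 4110 in OR1 and 4672 in OR2, with log2 ratios of 0.14 and 0.10 beside a technical SD of 0.20.

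The relatives of LRIG1 did not follow it. LRIG2 was read by 4 probes, of which 3 were well above background. The brightest, for ENST00000361127, read 170, 206 and 301, with ratios of 1.39 and 1.72. A weaker probe for the same transcript gave 1.51 and 2.07, the probe for NM_014813 gave 1.13 and 1.23, and the probe for BC017961, which reads the opposite strand, was well above background in no line. All 3 measured LRIG2 probes were thus above H1975 in both lines, and higher in OR2 than in OR1, though spike-in scaling put the brightest below H1975 in OR1. LRIG3, with a single probe, read 141, 91.5 and 126, with ratios of 0.742 and 0.871 (log2 -0.43 and -0.20, technical SD 0.21 for both).

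Seen as groups, the receptors and the restraints had medians on opposite sides of H1975, except in OR1 under spike-in scaling, where both lay below it. The 3 measured receptors had log2 ratios whose median was -1.05 in OR1 and -0.75 in OR2, and the 6 restraints had a median of 0.32 in both. Over the 9 measured genes together the median was 0.14 in OR1 and 0.10 in OR2, beside 0.04 and -0.06 over all genes. The level of a restraint near a ratio of 1 depended on the scaling of OR1. Scaling on 7 spike-in probes moved the median of all genes in OR1 from 0.04 to -0.56. It put LRIG2 at 0.913, ERRFI1 at 0.726 and CBL at 0.741 there. CBLB came to 1.08, and LRIG3 to 0.489, which passed the ratio of 0.5 in OR1. Under the same scaling LRIG1 remained at 17.2 and ERBB3 at 0.118 in OR1, and EGFR and ERBB2 came to 0.319 and 0.367.

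**Figure D2:**
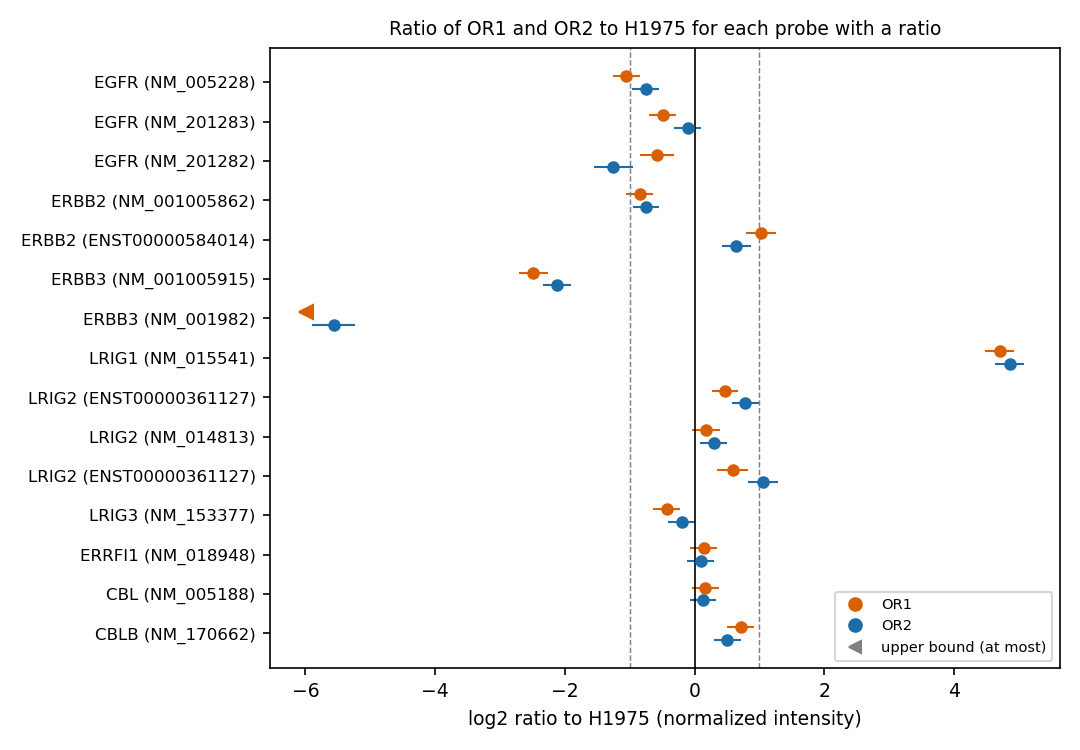
Log2 ratio to H1975 of the 15 probes with a ratio in OR1 (orange) and OR2 (blue); bars are the technical SD of 1 array against another, the triangle is an upper bound, and the dashed lines mark ratios of 0.5 and 2. ERBB3 lies left of the dashed line by both probes, LRIG1 lies far to the right at 4.70 and 4.86, and the ERBB2 probes point in opposite directions.

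**Figure D3:**
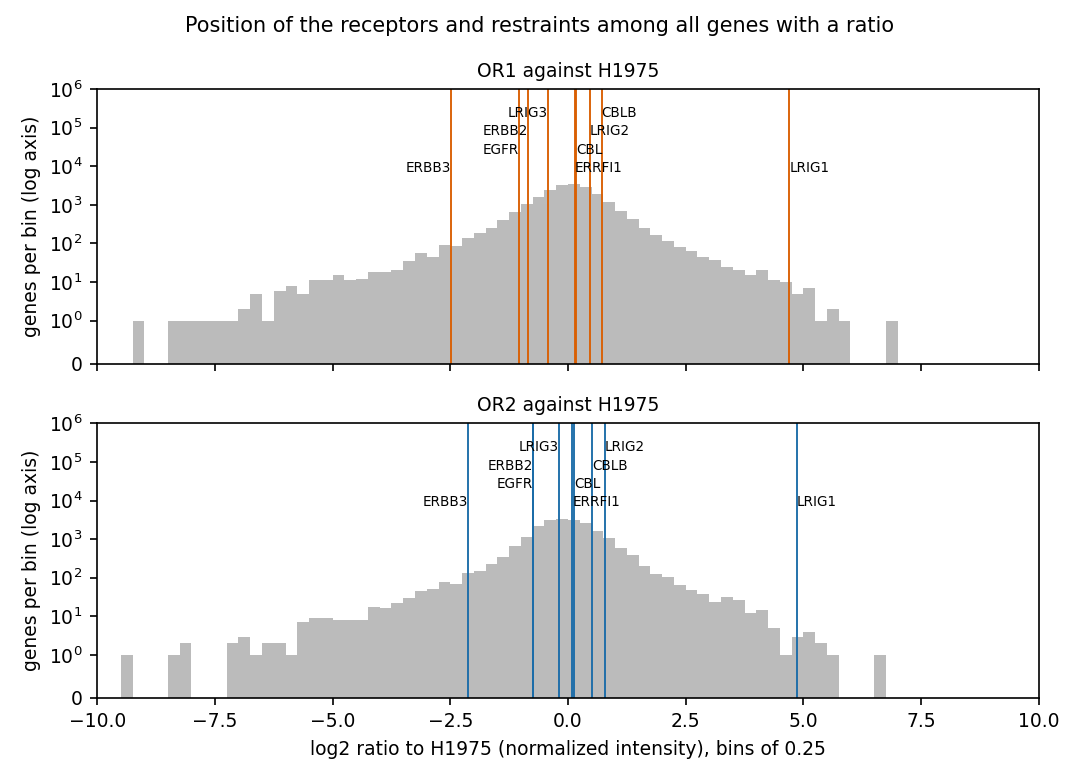
Number of genes (log axis) in each bin of 0.25 of the log2 ratio to H1975 for OR1 and OR2, with the brightest probe of each of the 9 measured genes as a vertical line. LRIG1 stands near the right edge of both distributions, ERBB3 in the left tail, and the other 7 within the body.

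Neighbouring genes were examined because position on the chromosome played no part in the choice of the 10 genes. For each of them the 20 nearest genes well above background on at least 1 array were taken by probe position. The neighbours of LRIG1 on chromosome 3, the farthest 2.64 Mb away, had log2 medians of 0.55 in OR1 and 0.61 in OR2, and 2 of the 20 were called higher in both lines. Their highest value was 1.80 in OR1 and 1.42 in OR2, well short of LRIG1 itself. The nearest gene, the mitochondrial carrier SLC25A26, whose probe lies 0.83 kb from that of LRIG1, had ratios of 1.66 and 1.97. On the other side KBTBD8 did not rise above background on any array.

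The neighbours of ERBB3 on chromosome 12 had medians of -0.31 and -0.54, and their lowest values, -1.19 and -1.23, did not reach the ERBB3 ratio. The flanking genes were RPS26, a ribosomal protein, with ratios of 0.684 and 0.493, and PA2G4, which encodes an ERBB3-binding protein, with 0.632 and 0.487. The neighbours of EGFR on chromosome 7 had medians of -0.12 and -0.36. SEC61G, a subunit of the protein translocation channel, had ratios of 0.542 and 0.537, which lie beside those of EGFR, and LANCL2 on the far side had lower bounds of 1.59 and 1.69. VOPP1, 264 kb from EGFR, was the 1 neighbour called lower in both lines, with log2 ratios of -1.43 and -1.17. The neighbours of ERBB2 on chromosome 17 had medians of -0.09 and -0.10. MIEN1, with a probe 0.64 kb from that of ERBB2, had log2 ratios of 0.07 and 0.14, and PGAP3 had -0.10 and 0.08. Close by, GRB7, 17.6 kb away, had log2 ratios of -2.25 and -1.55, and IKZF3, 29.2 kb away, had -3.60 and -1.98, and these were the 2 neighbours called lower in both lines. PNMT, on the side of PGAP3, had 1.60 and 2.05 and was the 1 called higher. The genes around ERBB2 thus ran in both directions.

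Around the other restraints the neighbours had medians of 0.74 and 0.45 for CBL, 0.39 and 0.38 for CBLB, -0.27 and -0.46 for LRIG3, 0.11 and -0.05 for LRIG2, and 0.11 and -0.10 for ERRFI1. CBL at 0.17 and 0.13 lay below the median of its own neighbours, and MCAM, a cell adhesion molecule with a probe 1.54 kb away, had ratios of 0.588 and 0.281. The gene closest to ERBB4 on one side, the urea cycle enzyme CPS1, had ratios of 17.0 and 17.4, while IKZF2 on the other side had 0.430 and 0.246. Copy number was not measured on these arrays, and its part in the ratios was not tested.

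**Figure D4:**
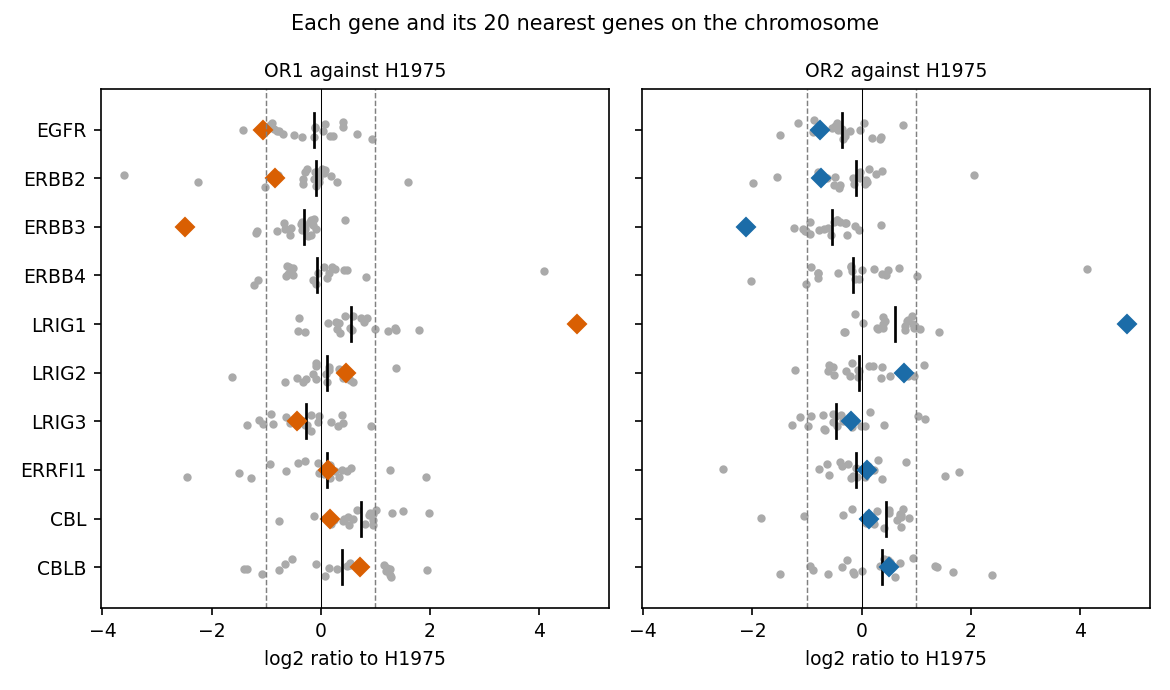
Log2 ratio to H1975 of each of the 10 genes (coloured diamonds; none for ERBB4) and of the 20 genes nearest to it by probe position (grey points, with their median as a black bar), in OR1 and OR2; dashed lines mark ratios of 0.5 and 2. LRIG1 and ERBB3 lie beyond all of their neighbours in both lines, and EGFR and ERBB2 lie among theirs.

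The start regions of the genes were read for simple sequence features. Promoter sequence of RefSeq on GRCh38.p14 was given for 8 of the 10 genes, with 17 start sites, and not for ERBB3 and CBL. In the 250 bases before each start, the GC box GGGCGG, which Sp1 family factors are known to bind, was found on either strand at 10 of the 17 starts and in 7 of the 8 genes, beside 42.6% of 35116 promoters. The AP-2 motif GCCNNNGGC was found at 4 of the 17 starts, in 4 of the 8 genes, beside 19.8% of all promoters. The E-box CACCTG, to which ZEB and SNAIL factors bind, was found at 1 of the 17 starts, the innermost of LRIG1, beside 17.5% of all promoters. Since the percentages are shares of promoters, the counts of starts are the nearer measure. Some start regions of LRIG1 and some of CBLB overlap, however, so the 17 are not separate sequences and a motif can be counted more than once. G and C made up 38.8% to 76.4% of the start regions, beside a median of 58% over all promoters. A match is no sign of binding, and genes with several starts have more chances of one. The EGFR region, at chr7:55018767-55019016 on the plus strand, and the LRIG1 region, at chr3:66501122-66501371 on the minus strand, are shown because they belong to the drug target and to the gene with the largest ratio. Both are the outermost start, with GC boxes in capitals, 2 in EGFR and 3 in LRIG1.
EGFR promoter: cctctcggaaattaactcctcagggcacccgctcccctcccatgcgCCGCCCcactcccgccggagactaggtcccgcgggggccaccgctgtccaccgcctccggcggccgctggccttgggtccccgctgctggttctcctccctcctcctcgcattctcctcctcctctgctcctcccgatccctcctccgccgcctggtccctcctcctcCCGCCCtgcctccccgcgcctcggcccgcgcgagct
LRIG1 promoter: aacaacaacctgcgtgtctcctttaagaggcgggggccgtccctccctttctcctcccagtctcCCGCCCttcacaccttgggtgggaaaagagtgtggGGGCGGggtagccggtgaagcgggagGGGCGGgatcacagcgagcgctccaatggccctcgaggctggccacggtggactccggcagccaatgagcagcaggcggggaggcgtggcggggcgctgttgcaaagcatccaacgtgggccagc

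The genes that act with the ERBB receptors were described by lists, each beside the 6.32% of all genes called lower and the 5.09% called higher in both lines. Of 11 ERBB ligands 6 were measured, and 1 was called higher and 1 lower. HBEGF, a ligand of EGFR and ERBB4, read 94.8, 200.4 and 243, with ratios of 2.41 and 2.50. Amphiregulin, AREG, which binds EGFR, read 1114, 342 and 373, with ratios of 0.351 and 0.326. The neuregulin NRG1, a ligand of ERBB3 and ERBB4, had ratios of 3.31 and 1.84 and so passed in OR1 alone. EREG was at 0.242 in OR1 and at 0.702 in OR2. Of the other measured EGFR ligands, TGFA was at 0.788 and 0.585, and BTC had upper bounds of 0.508 and 0.479.

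Of the 53 other receptor tyrosine kinases, 32 were measured, 5 were called higher in both lines and 9 lower. AXL, the TAM receptor for GAS6, had ratios of 3.60 and 3.89, and its H1975 intensity was 882. PDGFRB, a receptor for PDGF that fibroblasts express, had log2 ratios of 3.59 and 3.07. FGFR2 had ratios of 9.06 and 3.36, the pseudokinase PTK7 had 3.35 and 2.99, and ROR1, a receptor for WNT5A, had 2.13 and 2.08. No receptor of this list reached the LRIG1 ratio.

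The receptors called lower beside ERBB3 came largely from the Eph and TAM families. EPHA1 had upper bounds of 0.0781 and 0.0737, EPHB3 at 0.0781 and 0.113, EPHB2 at 0.331 and 0.346, and EPHA10 at 0.356 and 0.499. The TAM receptors TYRO3, at 0.423 and 0.304, and MERTK, at most 0.407 and at most 0.384, were lower while AXL was higher. CSF1R was at 0.249 and 0.375, NTRK2 at 0.118 and 0.490, and STYK1 at 0.442 and 0.222. MET, a receptor known to activate ERBB3 when amplified, was at 0.432 in OR1 and 0.582 in OR2, much like EGFR.

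Of 26 genes of receptor ubiquitination and sorting, 2 were called higher and 2 lower, with medians of 0.07 in OR1 and 0.01 in OR2. CBLC, the epithelial relative of CBL and CBLB, read 280 in H1975 and was not well above background in OR1 or OR2, so its ratios were at most 0.0464 and at most 0.0438. CBLC was thus the CBL family gene with the largest difference, and CBL and CBLB were called in neither direction. WWP1, a ubiquitin ligase, was at 0.419 and 0.492. NEDD4, another ubiquitin ligase, was at 2.36 and 2.21, and the endocytic adaptor EPS15L1 at 4.04 and 2.80. RNF41, known to drive the degradation of ERBB3 protein, was at 0.675 and 0.758, and the deubiquitinase USP8 at 0.839 and 1.07.

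Of 18 phosphatases and inhibitory adaptors, 1 was called higher and 1 lower. PTPRG, a receptor-type phosphatase, did not stand well above background in H1975, and its ratios were at least 4.97 and at least 7.07 as bounds. RASA1, which switches off RAS, was at 0.308 and 0.419. SPRY2 and SOCS5, of the same list, had ratios of 1.41 and 1.89 in OR1 and of 2.13 and 2.43 in OR2. The rest of the list ran both ways, with PTPRJ at 1.40 and 1.68, PTPN12 at 0.382 and 0.530, and SPRY4 at 0.654 and 0.693. The log2 medians of the list were 0.05 in OR1 and -0.07 in OR2.

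Of 24 adaptors and effectors, 2 were called higher and 1 lower. VAV3 had ratios of 6.74 and 5.56, and PIK3R2, a regulatory subunit of PI3K, had 2.32 and 2.02. GRB7, an adaptor encoded near ERBB2 on chromosome 17, read 550, 101 and 193, with ratios of 0.210 and 0.341, and so was lower than ERBB2 relative to H1975. Of 11 chaperones and membrane partners on the array none was called in both lines. In this list HSP90AA1, a chaperone on which ERBB2 depends, was at 0.639 and 0.582, and its co-chaperone CDC37 at 1.86 and 1.66. Of 11 output and feedback genes of the ERK pathway 1 was called, DUSP6, an ERK phosphatase, which read 273, 36.1 and 60.1, with ratios of 0.151 and 0.214.

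**Figure D5:**
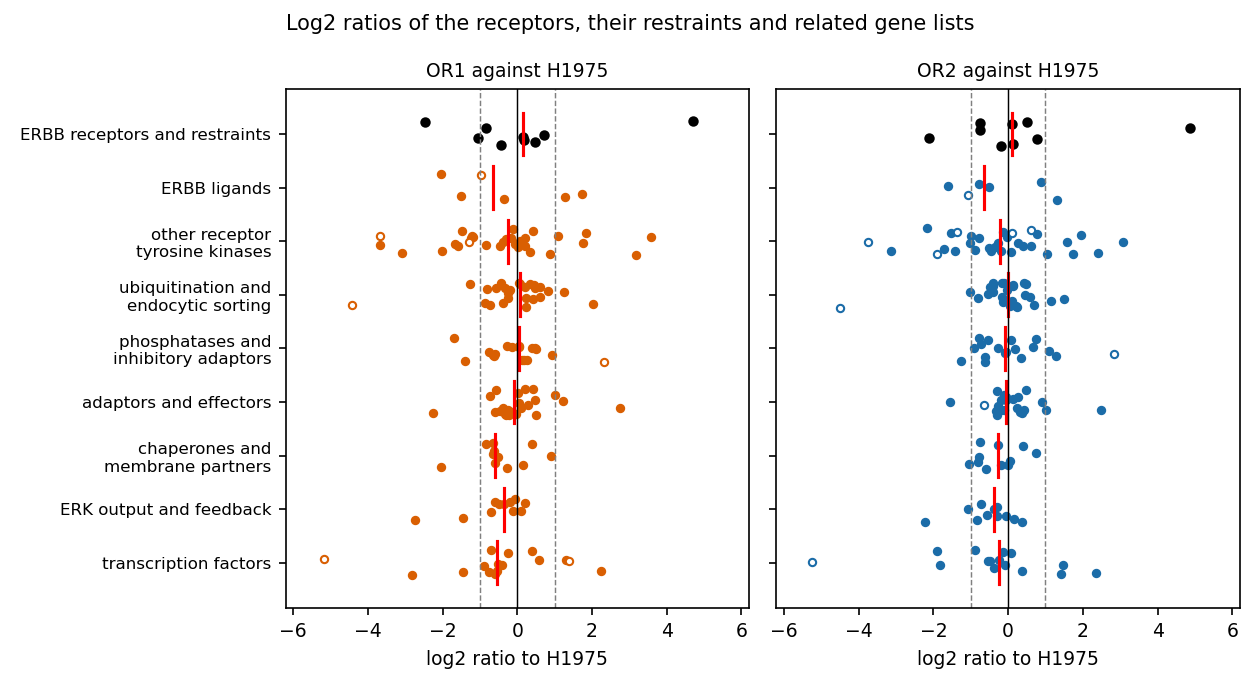
Log2 ratio to H1975 in OR1 (left) and OR2 (right) of the 9 measured receptors and restraints (black) and of the genes of 8 lists around them; each point is the brightest probe of 1 gene, open points are bounds, red bars are medians, the vertical scatter of points has no meaning, and dashed lines mark ratios of 0.5 and 2. LRIG1 lies to the right of every listed gene in both panels.

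Among 18 transcription factors tied to ERBB promoters, 16 were measured, 2 were called higher and 3 lower. ZEB1, a repressor of epithelial genes, had ratios of 4.74 and 5.14, and FOXO4 had 2.48 and 2.68. FOXO1 and FOXO3, which induce ERBB3 when AKT is inhibited, had ratios of 0.593 and 0.839 in OR1 and of 0.937 and 1.06 in OR2. GRHL2, an activator of epithelial genes, read 467 in H1975 and was not well above background in either resistant line, with ratios of at most 0.0278 and at most 0.0263. GRHL1 was at 0.143 and 0.268, and SNAI1 at 0.367 and 0.284.

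The label of a lung cancer line was checked against markers. Of 10 epithelial and lung adenocarcinoma markers 9 were measured, and 4 were called lower in both lines. CDH1 (E-cadherin) was at 0.0205 and 0.0800, EPCAM at 0.0370 and 0.0725, KRT7 at 0.164 and 0.170, and KRT19 at 0.463 and 0.492. KRT8 and KRT18 lay between 0.806 and 1.12. The lung regulator NKX2-1 was at 0.252 in OR1 and 1.36 in OR2, and the surfactant gene SFTPB was well above background in none of the lines. MUC1 was at 0.241 in OR1 and 0.594 in OR2, and NAPSA at 0.770 and 1.57. The 4 markers called lower share the direction of ERBB3 by the way they were picked, and the part of one in the other was not tested. Of 12 fibroblast markers 7 were measured, and their summed intensity, of which VIM made up most, came to 33243 for H1975, 45987 for OR1 and 61539 for OR2. PDGFRB was called higher and COL1A2 lower in both lines. In OR1 alone LUM was at least 5.43 and ACTA2 was at 2.56, and in OR2 alone COL1A1 was at 0.183. COL3A1, COL6A3, DCN, THY1 and PDGFRA of the same list were well above background in none of the lines, whereas in H1975 COL1A1 read 461 and COL1A2 read 200. FAP was well above background in H1975 alone, at 16.8. Of the immune markers PTPRC read 20.5 to 21.0 on the 3 arrays and CD3E was not well above background, and CD68 and LYZ were not analysed here. Of 4 endothelial markers 3 were measured, and none was called in both lines.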

How the data were processed

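Per the labels, total RNA was amplified, labelled with Cy3 and hybridized to Agilent arrays. The authors deposited background-corrected spot intensities per array (Feature Extraction, version 10.7.1.1 in the file headers and 9.5.1.1 in the submitters' processing notes), and a table of normalized intensity values. That table matched quantile-normalized scanner intensities to a median of 0.00134 on the log2 scale and was used as an alternative. After removal of control spots and outlier spots (45 to 61 per array), repeated spots were averaged as log2 intensity and the array's 75th percentile was subtracted. The probe with the highest mean log2 value stood for a gene. The calling procedure was checked on simulated large changes in genes bright in H1975, which is no test of the ratios given here. With 1 array per line there is no test, and the number of arrays limits the precision. The 10 genes, the lists and the neighbours and named genes (nearest patterns, flanking genes, and at most 3 called genes per list and direction, with receptors in full) were chosen with earlier results of these data known. Further genes, such as MET, TGFA, BTC, VOPP1, IKZF3, PNMT, LUM, ACTA2, COL1A1, FAP, MUC1, NAPSA, NRG1, EREG, RNF41, USP8, SPRY2, SOCS5, PTPRJ, PTPN12, SPRY4, HSP90AA1, CDC37, FOXO1 and FOXO3, were named after their values were seen. Python 3.11.15, pandas 2.3.3 and limma 3.58.1 (R 4.3.3) were used.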

Additional observations from a re-analysis of the deposited data

How the results depend on the processing

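Over 14 alternatives ERBB3 was the gene called lower in both lines and LRIG1 the gene called higher, except that with a threshold ratio of 1.5 the members called lower in both lines numbered 3, EGFR and ERBB2 included. No ratio that had passed the threshold changed its direction. Of 216 ratios of single genes under the alternatives, 18 moved by more than their technical SD. Of these, 9 moved under spike-in scaling in OR1, where the median log2 ratio of the members came to -0.46, and 4 under the normexp correction. The rest moved when the median over probes was taken, EGFR in OR1 and ERBB2 and ERBB3 in both lines. ERBB2 in OR1 thereby went from 0.556 to 1.06. LRIG1 ranged from 12.2 to 26.9 in OR1 and from 14.2 to 30.5 in OR2, and ERBB3 from 0.0531 to 0.338 and from 0.0698 to 0.374. The number of genes called in both lines fell from 1417 to 701 lower and from 1141 to 458 higher under the normexp correction, and the called higher to 591 under spike-in scaling. With no spot saturated, leaving out saturated spots could change nothing. The brightest probe of each measured member was well above background on every array. Dropping the background filter, or requiring it on all arrays, therefore could not move the members' ratios either. The ratios under these settings are counted among the 216. No paired analysis was possible because each line has 1 array and the labels give no replicate numbers. Which scaling is right for OR1 was not tested, and without replicates no ratio can be set against the spread between cultures.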
